A study of Drosophila melanogaster with 27 samples.

Results

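The genes described here encode subunits of the 5 enzyme complexes of oxidative phosphorylation. They were chosen by gene symbol alone: the symbol of a probe set had to start with ND- (complex I), Sdh and a letter from A to D (complex II), UQCR- (complex III), COX and a digit (complex IV) or ATPsyn (complex V), and the brightest probe set stood for a gene. The rule found 66 genes, with 68 probe sets, of the 10844 genes that had a probe set of their own. There were 31 genes of complex I, 6 of complex II, 4 of complex III, 11 of complex IV and 14 of complex V. Of these, 17 carry a symbol that ends in L, or in L and a digit, and are called variant copies below, while the other 49 are called standard subunits. The expression values come from whole w1118 animals of Drosophila melanogaster, a white-eyed laboratory strain, staged as larvae fed bromophenol blue at -18 and -4 h before pupariation, as prepupae every 2 h from 0 to 10 h after it, and as pupae at 12 h. At pupariation the larva stops moving and its cuticle hardens into a case, and the time course spans the late larval and prepupal rises of the molting hormone 20-hydroxyecdysone. Each of the 9 stages had 3 arrays, each hybridized with RNA of 10 animals, and no treatment or mutation distinguished the groups. The study's methods describe independent triplicates.

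Mitochondria make most of the ATP of a respiring cell with these complexes. Complex I (NADH dehydrogenase) and complex II (succinate dehydrogenase, which is also an enzyme of the tricarboxylic acid cycle) feed electrons from fuel into the inner membrane, complex III (cytochrome bc1) passes them to cytochrome c, and complex IV (cytochrome c oxidase) gives them to oxygen. The proton gradient that this builds drives complex V, the ATP synthase. Several subunits of complexes I, III, IV and V are encoded in the mitochondrial genome and lie outside the rule. Flies also carry duplicates of many nuclear subunit genes, and a good part of these duplicates is known to be transcribed mainly in the male germ line of adults. At metamorphosis the larval muscles and midgut are broken down while adult tissues grow, so RNA of a whole animal mixes tissues in shifting proportions. In such samples fewer cells of a type and less RNA per cell cannot be told apart.

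Values are deposited intensities in arbitrary units, and the number of arrays limits the precision. All 66 genes passed the filter on dim probe sets, and of them only COX7AL had an array at the floor of 60.26. Array medians lay between 249.4 and 277.3. Replicate 2 of -18 h stood apart from the other 2 arrays of its stage: it was the lowest of the 3 for 43 of 49 standard subunits (87.8%), against 46.8% of all 12854 probe sets tested. Replicate 1 of -4 h was the lowest of its stage for 30 of 49 (61.2%), against 42.2% of all. Counts of called respiratory genes and medians of standard subunits that rest on replicate 2 of -18 h are therefore given with and without it. The copy ratios, the stages of highest and lowest mean and the lists of other mitochondrial genes are given with all arrays only. Tissue markers moved strongly over the same stages. The summed intensity of 10 measured muscle markers of 15 listed was 11062 to 12012 at 12 h, against 51829 to 60792 at -18 h, and that of 10 measured midgut digestive enzymes of 12 listed was 2797 to 3385 at 12 h, against 100387 to 106085 at -18 h. No more than 1 of the 10 muscle markers was at the floor on any array. For 3 fat body markers of 6 listed the sum ranged from 43568 to 46831 among pupae and from 43432 to 47618 among -18 h larvae. The part of these tissues in the results below was not tested.

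Fewer of the respiratory genes than of all probe sets were called as changing over the time course, though not when 1 larval array was left out. A limma F-test over the 9 stages, with a span of stage means of at least 1.5-fold, called 15 of 66 genes (22.7%), against 49.5% of all probe sets. By complex these were 3 of 31 genes of complex I, 1 of 6 of complex II, 1 of 4 of complex III, 6 of 11 of complex IV and 4 of 14 of complex V. The 15 were ND-18, ND-B14.5AL and ND-B16.6 of complex I, SdhB of complex II, UQCR-14L of complex III, COX4, COX4L, COX5B, COX5BL, COX7A and COX7AL of complex IV, and ATPsynCF6L, ATPsynO, ATPsynbeta and ATPsyndelta of complex V. Without replicate 2 of -18 h the F-test called 32 genes (48.5%), close to the 46.9% of all probe sets then called. These were 7 of 31 genes of complex I, 2 of 6 of complex II, 3 of 4 of complex III, 10 of 11 of complex IV and 10 of 14 of complex V. With all arrays kept and array weights in the fit, the share stayed lower, with 25 genes (37.9%) against 53.5% of all probe sets. With all arrays, stage means were highest at -18 h for 25 genes (37.9%, against 29.5% of all probe sets). They were highest at 8 h for 17 (25.8%, against 10.1%) and at 0 h for 11 (16.7%, against 12.5%). The lowest mean was at 12 h for 28 genes (42.4%, against 9.08%) and at -18 h for 12 (18.2%, against 30.9%). These counts include replicate 2 of -18 h and are not given without it.

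**Figure D1:**
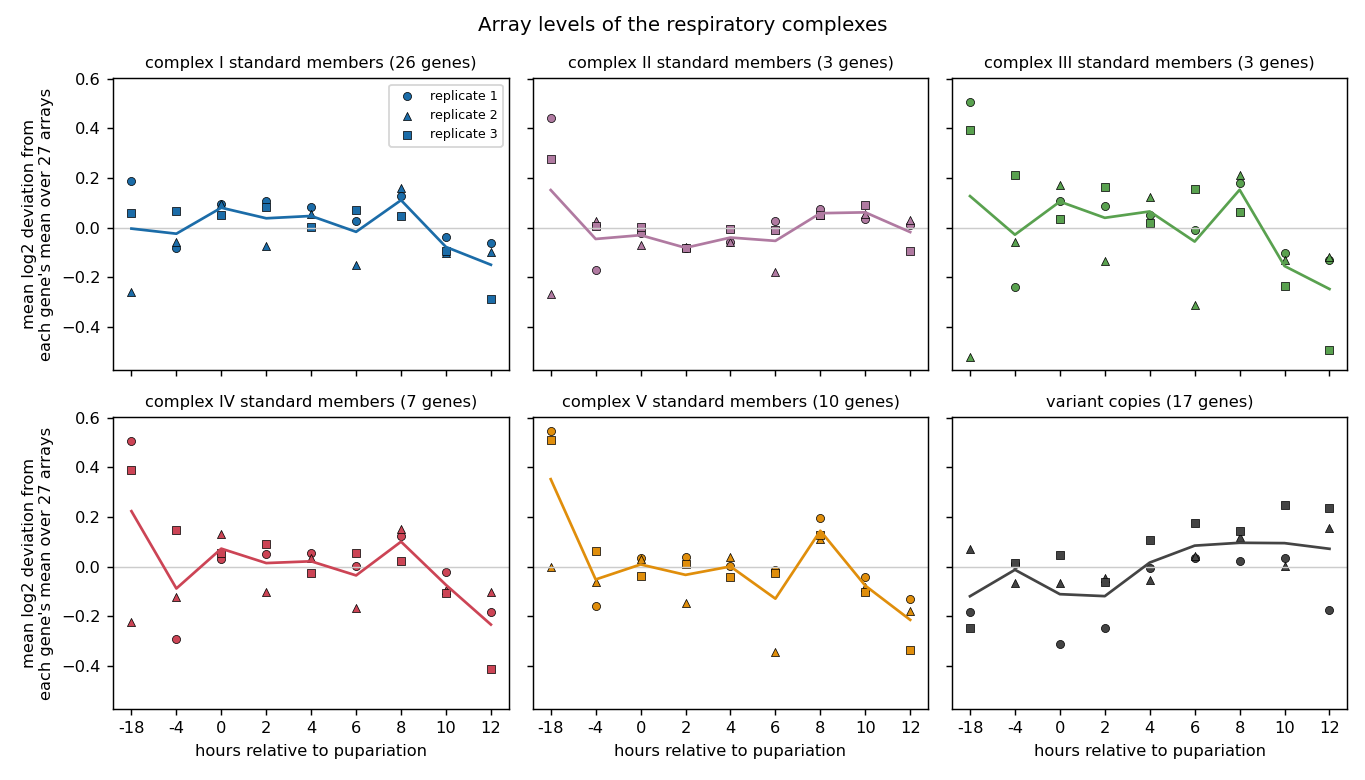
Mean log2 deviation of the standard subunits of each complex, and of the 17 variant copies, from each gene's own mean over the 27 arrays (vertical axis), by hours relative to pupariation (horizontal axis, stages evenly spaced). Symbols are single arrays and lines join the stage means of 3 arrays. Complexes III, IV and V have 2 high arrays and 1 low array at -18 h, the stage means of complexes I, III, IV and V are higher at 8 h than at 6 and 10 h, and that of the variant copies is lower at -18 h than from 4 h on, with overlapping arrays.

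Between the -18 h larva and the pupa the called falls were all of standard subunits and the called rises all of variant copies. At 12 h against -18 h, 8 of 66 genes fell and 4 rose, which is 12.1% and 6.06% of the genes, against 11.7% and 17.4% of all probe sets. The median log2 difference was -0.42 for complex V, -0.39 for complex IV, -0.30 for complex III, -0.10 for complex I and -0.06 for complex II, where the median of all probe sets was -0.0038. Among standard subunits alone it was -0.51 for the 10 of complex V, -0.42 for the 7 of complex IV, -0.44 for the 3 of complex III, -0.20 for the 3 of complex II and -0.10 for the 26 of complex I. The 8 called falls were 4 of complex V, 3 of complex IV and 1 of complex I, or 16.3% of the 49 standard subunits. The 4 called rises were 23.5% of the 17 variant copies, beside the 17.4% of all probe sets. In a comparison added after the results were seen, bright probe sets as a whole had the opposite sign: of 1381 probe sets with a mean of at least 1000, 33.6% had a fitted difference below 0, with a median of 0.32, against 22 of the 27 respiratory genes of that brightness (81.5%), with a median of -0.41. Without replicate 2 of -18 h, 20 genes fell and 5 rose, against 9.81% and 15.5% of all probe sets; the 8 and the 4 were among them, all 20 were again standard subunits and all 5 variant copies. By complex the 20 were 6 of complex V, 6 of complex IV, 5 of complex I, 2 of complex III and 1 of complex II. The medians of the standard subunits were then -0.63 for complex V, -0.78 for complex IV, -0.82 for complex III, -0.43 for complex II and -0.25 for complex I.

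**Figure D2:**
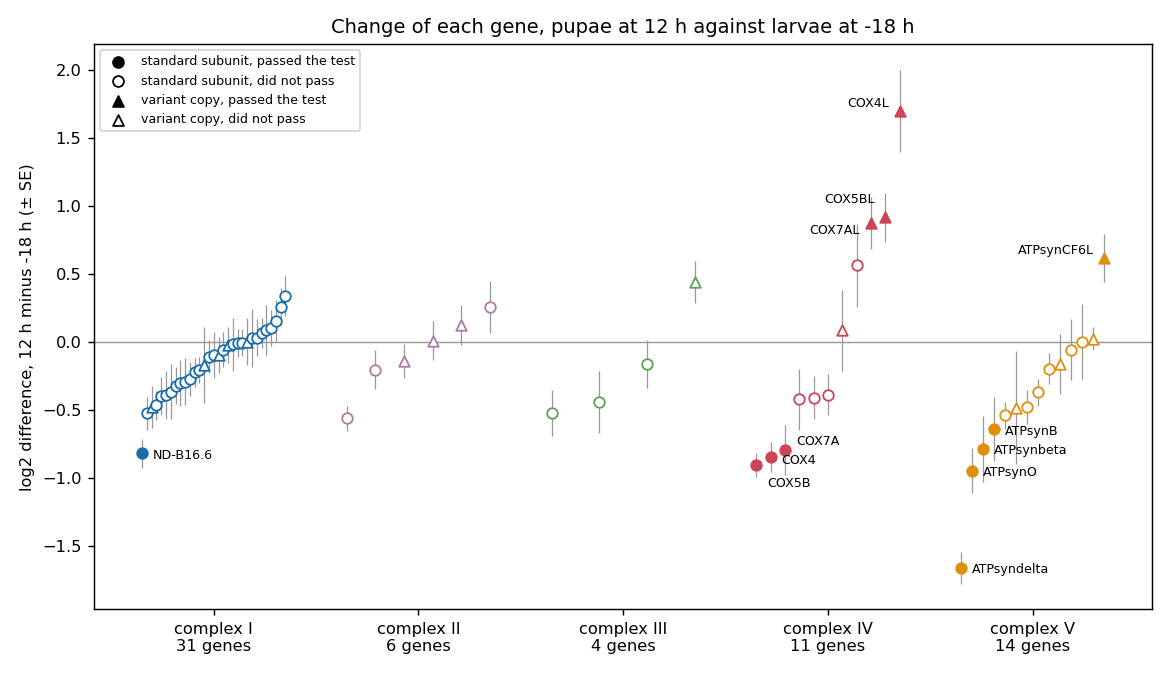
Fitted log2 difference between 12 h pupae and -18 h larvae for each of the 66 genes (vertical axis, with its standard error), ordered by size within each complex. Filled symbols passed the limma test at an adjusted p under 0.1 and 1.5-fold, circles are standard subunits and triangles variant copies. All filled circles lie below 0, with ATPsyndelta lowest at -1.66, and all filled triangles lie above 0, with COX4L highest at 1.70.

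The ATP synthase held the gene with the largest fall. ATPsyndelta, a subunit of the central stalk that turns inside the catalytic head, had intensities of 1153, 1271 and 1145 at 12 h, against 3233, 4451 and 3690 at -18 h. The groups did not overlap, and the level was 3.16-fold lower at 12 h (log2 difference -1.66, SE 0.12, adjusted p = 8.25e-11, limma). Most of the decline came before pupariation, with a stage mean of 3791 in -18 h larvae, 2066 in -4 h larvae and 1509 in newly formed prepupae, then 1350 to 1556 from 2 h to 10 h, and 1189 at 12 h. ATPsynO, the subunit that joins the peripheral stalk to the head, had 1801, 1661 and 1614 at 12 h, against 2895, 4735 and 2522 at -18 h, a 1.93-fold lower level (adjusted p = 7.93e-05). Replicate 2 was the highest of the -18 h arrays for both genes, and for ND-B16.6 below, while for most standard subunits it was the lowest. The catalytic subunit ATPsynbeta had 973, 903 and 733 at 12 h, against 1729, 881 and 2168 at -18 h. Its arrays overlapped because of replicate 2 of -18 h, and its level was 1.73-fold lower at 12 h (SE 0.24, adjusted p = 0.0113), a call that was lost without replicate 3 of -18 h (log2 difference -0.52). ATPsynB of the peripheral stalk, named here as the remaining called fall of the complex, was 1.56-fold lower (adjusted p = 0.0297), with 1441, 1322 and 1296 at 12 h, against 3020, 1247 and 2483 at -18 h, and was not called without replicate 1 (-0.38) or 3 (-0.52) of -18 h. The brightest gene of the complex, the peripheral stalk subunit ATPsynD, averaged 3248 ± 220 at 12 h and 4219 ± 573 at -18 h (SD, n = 3 each) and did not pass the fold threshold. ATPsynC, which forms the rotor ring, had 2368, 1979 and 1913 at 12 h, against 2971, 969 and 3101 at -18 h, so that replicate 2 was below all other arrays given, and the fitted difference was 0.0024 on the log2 scale (SE 0.28).

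In cytochrome c oxidase, 3 of 7 standard subunits fell and 3 of 4 variant copies rose. COX4, the brightest gene of the complex and a subunit that contacts its catalytic core, had intensities of 2506, 2514 and 2029 at 12 h, against 4533, 3833 and 4249 at -18 h. COX5B, a zinc-binding subunit on the matrix side, had 2075, 2440 and 1959 at 12 h, against 4017, 3944 and 4127 at -18 h. For both genes every 12 h array lay below every -18 h array, with levels 1.79-fold lower for COX4 (SE 0.11, adjusted p = 1.73e-06) and 1.88-fold lower for COX5B (SE 0.09, adjusted p = 2.25e-08). COX7A was 1.74-fold lower (adjusted p = 0.00126), with 1687, 1607 and 1180 at 12 h, against 3374, 1675 and 2960 at -18 h, and is named because it completes the called falls of the complex. The other standard subunits, COX5A, COX7B and COX8, had differences of -0.39 to -0.42, and COX7C, the dimmest of the 7, one of 0.56 with a standard error of 0.31. None of these 4 passed both thresholds with all arrays, and COX5A, COX7B and COX8 fell without replicate 2 of -18 h.

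In complex I, the largest of the 5, 1 of 31 genes fell with all arrays. Without replicate 2 of -18 h there were 5, namely ND-39, ND-ASHI, ND-B14.5B, ND-B16.6 and ND-MNLL. ND-B16.6, the fly counterpart of the human subunit also known as GRIM-19, had 1648, 1764 and 1752 at 12 h, against 2688, 3584 and 2902 at -18 h (1.76-fold lower, SE 0.11, adjusted p = 2.02e-06). It was the brightest gene of the complex and the one with the largest span of stage means. The measured core subunits stayed within their spread with all arrays. ND-75, which holds iron-sulfur clusters of the arm that takes up electrons, averaged 522 ± 39.7 at 12 h and 571 ± 122 at -18 h. ND-51, the NADH-binding subunit, averaged 658 ± 119 at 12 h and 714 ± 191 at -18 h. ND-20, which holds the last iron-sulfur cluster before the quinone, averaged 612 ± 84.0 at 12 h and 597 ± 198 at -18 h (SD, n = 3 each). Their log2 differences were -0.11, -0.10 and 0.09, with standard errors of 0.12 to 0.18. At -18 h ND-75 had 669, 434 and 609, ND-51 867, 500 and 774, and ND-20 757, 376 and 658, so that replicate 2 was the lowest. Its removal leaves the -18 h arrays of ND-75 and ND-51 above their highest 12 h arrays of 546 and 747. Those of ND-20 still overlap, and none of these core subunits was among the 5 called falls. ND-18, an accessory subunit needed for a stable complex in mammals, was called over the time course and not between its ends: its stage means were higher at each stage up to 8 h, where it averaged 737 ± 19.2, and were 488 ± 29.3 at 12 h and 470 ± 72.5 at -18 h.

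Complexes II and III were represented by few genes. SdhB, the iron-sulfur subunit of succinate dehydrogenase and its brightest measured gene, was the only one of complex II called over the stages (adjusted p = 0.0158, limma F-test). Its stage mean was 1730 in -18 h larvae and 1495 in -4 h larvae, reached its lowest value of 1401 in newly formed prepupae, lay between 1464 and 1618 from 2 to 6 h, and then stood at 2061 in 8 h prepupae, 2332 in 10 h prepupae and 1961 in pupae. The -18 h arrays, at 1026 to 2356, spanned more than this range. The membrane anchors behaved differently from it. SdhC had 686, 591 and 631 at 12 h, against 977, 860 and 979 at -18 h, with no overlap and a 1.48-fold lower level (adjusted p = 3.08e-05), just under the fold threshold. SdhD averaged 768 ± 87.0 at 12 h and 903 ± 231 at -18 h. In complex III, UQCR-Q, its brightest gene, averaged 1776 ± 289 at 12 h and 2041 ± 624 at -18 h, and UQCR-14 1475 ± 135 at 12 h and 2206 ± 731 at -18 h (SD, n = 3 each). None of the 3 standard subunits of complex III passed. Without replicate 2 of -18 h, UQCR-14, UQCR-6.4 and SdhC were among the 20 called falls.

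**Figure D3:**
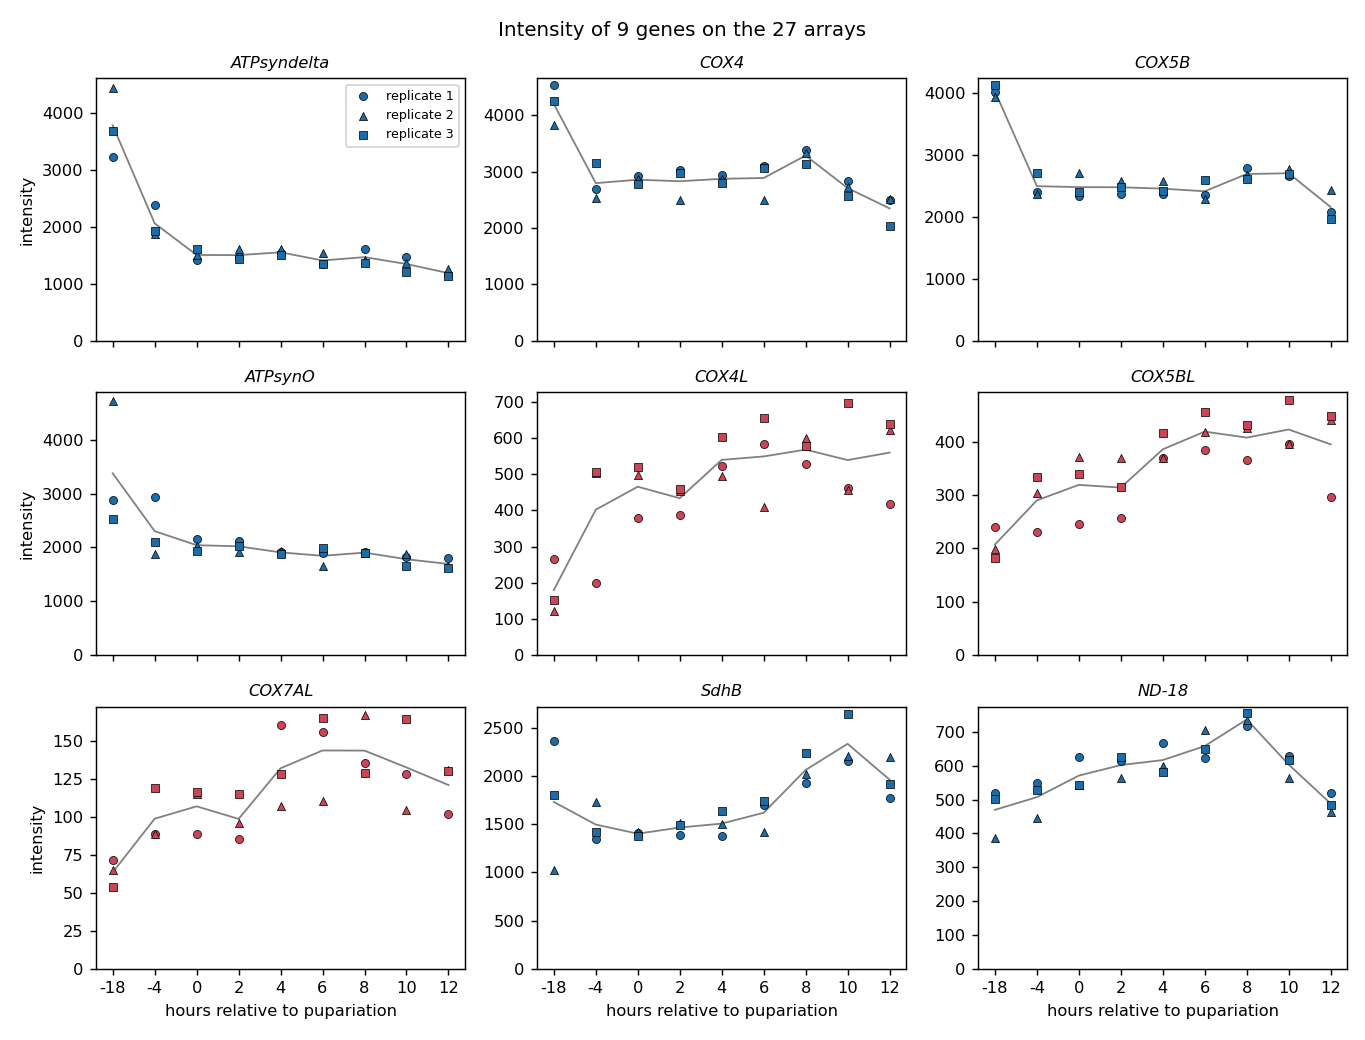
Intensity (vertical axes, from 0) of 9 genes on the 27 arrays by hours relative to pupariation (stages evenly spaced). Symbols are arrays, lines join stage means, blue marks standard subunits and red variant copies. ATPsyndelta, COX4, COX5B and ATPsynO drop between -18 h and 0 h, the copies COX4L, COX5BL and COX7AL are lowest at -18 h, SdhB is highest at 10 h and ND-18 at 8 h.

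With all arrays, the interval from -18 to -4 h, over which the hormone rises in the late larva, held called falls in complexes IV and V, 2 in each. At -4 h against -18 h, 4 genes fell and 1 rose (6.06% and 1.52%), against 3.66% and 9.86% of all probe sets. COX5B was 1.62-fold lower at -4 h (SE 0.09, adjusted p = 3.95e-06), with 2409, 2371 and 2708 at -4 h, against 4017, 3944 and 4127 at -18 h. COX4 was 1.51-fold lower, with 2700, 2540 and 3156 at -4 h and no overlap with the -18 h arrays. It was near the fold threshold and was not called without replicate 1 (-0.53) or 3 (-0.58) of -18 h or replicate 1 (-0.57) or 2 (-0.52) of -4 h. ATPsyndelta was 1.83-fold lower, and ATPsynbeta 1.54-fold lower with overlapping arrays (SE 0.24, adjusted p = 0.0707). The call of ATPsynbeta was lost without replicate 1 (-0.52) or 3 (-0.36) of -18 h or replicate 1 (-0.55) or 2 (-0.55) of -4 h. The medians of the standard subunits were -0.40 for complex V, -0.32 for complex IV, -0.24 for complex III, -0.14 for complex II and -0.02 for complex I, beside 0.01 for all probe sets. Leaving out 1 array moved the count of falls to between 2, without replicate 2 of -4 h, and 11, without replicate 2 of -18 h. Those 11 were 5 of complex V, 4 of complex IV and 2 of complex III (UQCR-14 and UQCR-6.4), where 5.2% of all probe sets fell. The medians of the standard subunits were then -0.60 for complex V, -0.64 for complex IV, -0.585 for complex III, -0.44 for complex II and -0.18 for complex I. The 11 falls still rest on replicate 1 of -4 h, the lowest of its stage for 30 of 49 standard subunits. With that array left out as well, the count of falls stayed within 1.5 times the 4 with all arrays. The rises, at 1 with all arrays, numbered 2 or 3 without replicate 1 or 2 of either stage.

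In the comparisons made across puparium formation and the prepupal period no single gene passed both thresholds. Other pairs of stages can differ more: SdhB, called in the F-test, had its lowest stage mean at 0 h and its highest at 10 h, a 1.66-fold span. The counts were 0 rises and 0 falls at 0 h against -4 h (4.61% and 3.38% of all probe sets), at 6 h against 0 h (4.6% and 6.48%) and at 12 h against 6 h (5.06% and 4.82%). Some genes passed the adjusted p of 0.1 in limma and missed the fold threshold: 2 at 0 h against -4 h, 3 at 6 h against 0 h and 4 at 12 h against 6 h. The smallest adjusted p were 0.0167 for ATPsyndelta, 0.0437 for UQCR-14L and 0.00727 for ND-18, in that order. At an unadjusted p under 0.05 in limma, 1 gene was higher and 3 lower at 0 h against -4 h, 6 higher and 1 lower at 6 h against 0 h, and 0 higher and 10 lower at 12 h against 6 h. For these counts without the fold threshold the shares of all probe sets were not counted, so they cannot be called many or few. The fitted differences of the 49 standard subunits were mostly of 1 sign at each step: 34 were above 0 at 0 h against -4 h, 40 below 0 at 6 h against 0 h and 43 below 0 at 12 h against 6 h. They were small, with medians of 0.09, -0.12 and -0.13. Without replicate 3 of -4 h, 1 gene rose and 2 fell at 0 h against -4 h, and without replicate 2 of 6 h, 1 gene rose at 6 h against 0 h. Genes measured on the same arrays share the deviations of those arrays, so these counts are descriptions and not tests. Among the variant copies 15 of 17 were above 0 at 6 h against 0 h, with a median of 0.22.

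The comparisons of 8 h with its neighbours were added after the stage means had been seen, and no gene passed both thresholds in them. For 40 of 49 standard subunits (81.6%) the 8 h mean was above both the 6 h and the 10 h mean, against 27.7% of all probe sets. It was so for 22 of 26 in complex I, 1 of 3 in complex II, 3 of 3 in complex III, 5 of 7 in complex IV and 9 of 10 in complex V, and for 6 of 17 variant copies. The median difference of the standard subunits was 0.16 at 8 h against 6 h and -0.23 at 10 h against 8 h, beside 0.01 and 0.01 for all probe sets. The calls were 0 in both (3.71% of all probe sets rose and 1.55% fell at 8 h against 6 h, and 2.03% rose and 3.38% fell at 10 h against 8 h). An adjusted p under 0.1 in limma, short of the fold threshold, was found for 1 gene at 8 h against 6 h (ATPsynE, 0.088). At 10 h against 8 h it was found for 2, with the smallest for ND-13A (0.00854). For these counts without the fold threshold, and for those at an unadjusted p, the shares of all probe sets were not counted. At an unadjusted p under 0.05 in limma, 4 genes were higher and 0 lower at 8 h against 6 h, and 0 higher and 7 lower at 10 h against 8 h. ATPsynbeta, with the largest of these differences, averaged 1323 ± 121 at 8 h and 949 ± 218 at 6 h, and 878 ± 19.6 at 10 h (SD, n = 3 each). Its 3 arrays at 8 h were above all arrays of both neighbours. Replicate 2 of 6 h was low for standard subunits, and without it the median at 8 h against 6 h was 0.09, with 39 of 49 above 0.

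COX4L, a copy of COX4, had intensities of 417, 624 and 640 at 12 h, against 266, 121 and 151 at -18 h. Its lowest 12 h array was above its highest -18 h array, and its level was 3.25-fold higher at 12 h (SE 0.30, adjusted p = 9.75e-05, limma). COX5BL had 296, 442 and 448 at 12 h, against 241, 199 and 182 at -18 h (1.89-fold higher, adjusted p = 0.00027). COX7AL, which was near the floor, had 102, 131 and 130 at 12 h, against 72.0, 64.8 and 53.9 at -18 h (1.84-fold higher, adjusted p = 0.000827). One of its -18 h arrays was set to the floor, and with a higher floor of 102.67 the log2 difference was 0.23 (adjusted p = 0.261, limma) and the call was lost, so that its rise depends on the floor. ATPsynCF6L, a copy of coupling factor 6 of the ATP synthase stalk, had 207, 279 and 235 at 12 h, against 178, 157 and 135 at -18 h (1.54-fold higher, SE 0.18, adjusted p = 0.0072). It fell short of the fold threshold without replicate 3 of -18 h (0.52) or replicate 2 of 12 h (0.51). COX4L was already 2.18-fold higher at -4 h, with 198, 503 and 506 against 266, 121 and 151 at -18 h, where its arrays overlapped (adjusted p = 0.0097). UQCR-14L of complex III was called over the stages and was highest at 6 h, with 218 ± 22.1 at 12 h and 161 ± 17.3 at -18 h (SD, n = 3 each).

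Other copies stayed level, scattered or fell. ND-B14.5AL of complex I had 641, 797 and 756 at 12 h, against 1060, 965 and 1021 at -18 h, without overlap and 1.39-fold lower, and was called over the stages with its lowest mean at 4 h. ND-20L, ND-51L1, SdhAL, SdhBL, SdhCL and ATPsynbetaL, copies of subunits of complexes I, II and V, had differences of -0.14 to 0.12 at 12 h against -18 h, each below its standard error or near it. The copies ATPsynGL, ATPsynepsilonL, COX6AL2 and ND-51L2 were dominated by single arrays. ATPsynGL had 318, 447 and 521 at 12 h, against 323, 1737 and 360 at -18 h, and 1020 in replicate 1 of -4 h. COX6AL2 had 86.2, 132 and 135 at 12 h, against 72.4, 232 and 76.7 at -18 h, and became the fifth called rise without replicate 2 of -18 h. ND-51L2 reached 364 in that replicate, 359 in replicate 1 of -4 h and 301 in replicate 3 of 12 h, and ND-24L 360 in the last of these.

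Set against the subunit it is named after, a copy can be followed within each array. Such pairs numbered 12. From -18 h to 12 h the log2 ratio of copy to subunit shifted by 2.54 for COX4L (5.83-fold), 1.82 for COX5BL (3.54-fold), 1.67 for COX7AL, with 1 of its -18 h arrays at the floor,, 0.96 for UQCR-14L, 0.82 for ATPsynCF6L and 0.81 for ATPsynbetaL. In these 6 pairs the 12 h arrays lay above all -18 h arrays, although ATPsynbetaL itself was level, and in ND-B14.5AL they lay below, with a shift of -0.74. In the other 5 pairs the arrays overlapped. The exact two-sided permutation test gave p = 0.1 for each of the 7, the smallest that 3 against 3 arrays allow, and 0.171 when adjusted over the 12 pairs. A shared probe between a copy and its subunit was not checked.

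**Figure D4:**
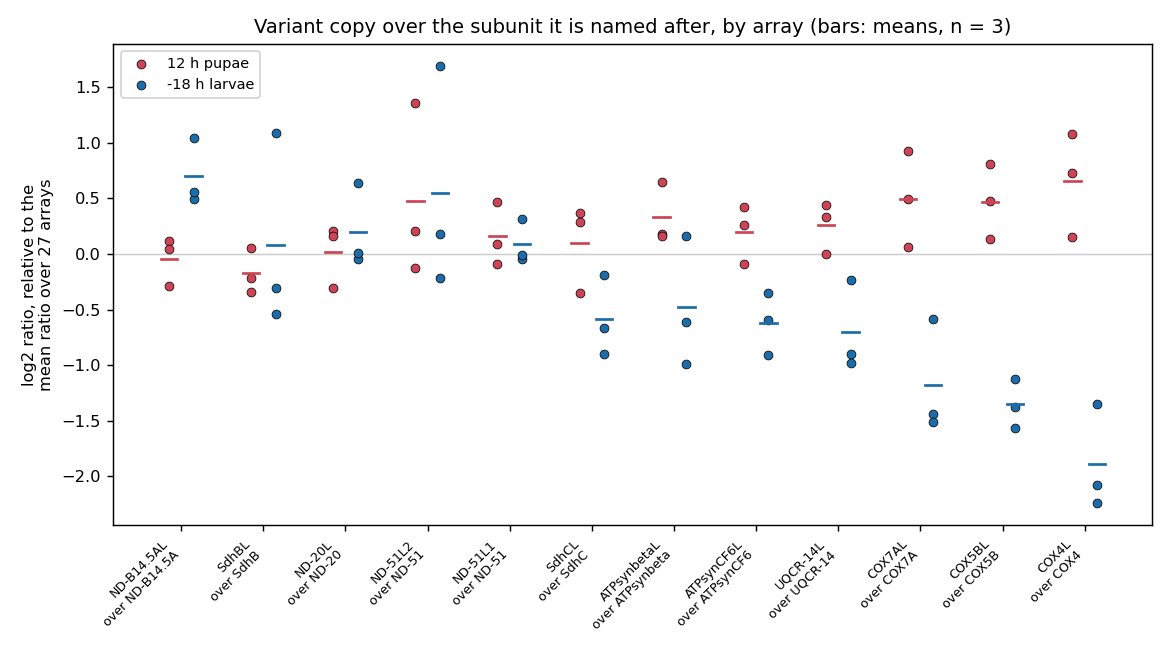
Log2 ratio of each variant copy to the subunit it is named after on single arrays, relative to the mean ratio over the 27 arrays (vertical axis), for 12 h pupae (red, left of each pair) and -18 h larvae (blue, right), with bars at the means of 3 arrays. The ratios of COX4L, COX5BL and COX7AL shifted most, by 2.54, 1.82 and 1.67, and that of ND-B14.5AL shifted by -0.74.

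Testis transcripts were higher at 12 h than at -18 h, as were the 4 called copies of 17. The summed intensity of 11 measured testis markers of 14 listed was 13132 to 19727 at 12 h, against 5292 to 8327 at -18 h. All 11 of 11 were called higher, against 17.4% of all probe sets. The sum was 13132, 19659 and 19727 in replicates 1 to 3 of 12 h, where COX4L had 417, 624 and 640, and 9990, 13317 and 14423 in those of -4 h, where COX4L had 198, 503 and 506. In a comparison made after these values were seen, the array with the lowest testis sum of its stage was also the lowest for ATPsynCF6L at 9 of 9 stages, for COX4L at 8, and for COX5BL, COX7AL and UQCR-14L at 7. The median over the 17 copies was 5 stages, with a range of 3 to 9, and over the 49 standard subunits 3 stages, with a range of 1 to 6. The part of testis RNA in the rise of the copies was not tested.

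The lists of other mitochondrial genes are short, and their counts at 12 h against -18 h are to be read beside the 17.4% of all probe sets that rose and the 11.7% that fell. They include replicate 2 of -18 h and are not given without it. Of 7 measured subunits of complexes III to V with other symbols, 4 fell at 12 h against -18 h and 0 rose. Among them cype, a cytochrome c oxidase subunit, averaged 2860 ± 195 at 12 h and 6907 ± 401 at -18 h (2.42-fold lower, SE 0.10, adjusted p = 4.51e-10), and blw, the alpha subunit of the ATP synthase, 3383 ± 149 at 12 h and 5875 ± 734 at -18 h (1.73-fold lower). Of 10 membrane carriers and pores of mitochondria (ADP/ATP and phosphate carriers, porin, Tspo and relatives of the uncoupling proteins), 2 fell and 2 rose. The phosphate carrier Mpcp1 averaged 855 ± 17.2 at 12 h and 3890 ± 290 at -18 h (4.54-fold lower), and the ADP/ATP carrier sesB 1765 ± 160 at 12 h and 4027 ± 386 at -18 h (2.28-fold lower). Of 12 assembly factors 1 fell, Bcs1, which inserts the Rieske protein into complex III, at 80.9 ± 26.8 at 12 h and 134 ± 63.6 at -18 h (adjusted p = 0.0597), while bsf, with the next largest span, differed by -0.09.

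Of 11 measured genes of the tricarboxylic acid cycle, 2 fell and 1 rose at 12 h against -18 h. Idh3g, a subunit of the NAD-dependent isocitrate dehydrogenase, averaged 1030 ± 59.3 at 12 h and 2821 ± 181 at -18 h (2.74-fold lower). Ogdh, of the oxoglutarate dehydrogenase, was 2.71-fold higher at 0 h, with 804 ± 189, than at -4 h, with 302 ± 94.4, and 2.51-fold lower again at 6 h. Of 8 genes of fatty acid oxidation, 0 rose and 1 fell over the whole course. Among them whd, which admits fatty acids into mitochondria, averaged 1261 ± 88.0 at 8 h and 751 ± 107 at 6 h (1.69-fold higher, adjusted p = 0.00466), and 614 ± 27.4 at 10 h (2.05-fold lower than at 8 h, adjusted p = 0.000168). The thiolase yip2 differed by -0.27 between 12 h and -18 h (SE 0.19) and did not pass.

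Of 5 measured regulators of nuclear genes for mitochondria, 3 rose and 0 fell at 12 h against -18 h. The nuclear receptor ERR, which controls metabolic genes in larvae, averaged 415 ± 80.4 at 12 h and 187 ± 67.9 at -18 h (2.31-fold higher, SE 0.22, adjusted p = 0.000127), and the deacetylase Sirt1 481 ± 113 at 12 h and 221 ± 106 at -18 h (2.33-fold higher). The third was ewg, the counterpart of the mammalian nuclear respiratory factor. Of 9 measured genes for mitochondrial DNA upkeep and transcription, 1 rose and 0 fell: mtSSB, the single-strand binding protein, averaged 321 ± 96.7 at 12 h and 211 ± 95.3 at -18 h (1.61-fold higher, adjusted p = 0.0432). The polymerase PolG1 differed by -0.48 (SE 0.23) and did not pass.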

How the data were processed

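Total RNA of staged animals was measured on 27 Affymetrix Drosophila Genome Arrays. The authors normalized the scans with dChip 1.2 and deposited 1 linear intensity for each probe set of an array; the use of mismatch probes is not stated. Values under 60.26, the 10th percentile, were set to that floor, log2 was taken, and 12854 of 13966 probe sets were tested, those that exceeded the floor on all 3 arrays of some stage. Stages were compared with limma 3.58.1 in R 4.3.3 (lmFit, eBayes) in 1 fit of the 27 arrays without covariates, and called at a Benjamini-Hochberg adjusted p under 0.1 over all probe sets and at least 1.5-fold. SE are in log2 units. Consecutive comparisons share arrays.

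Symbols came from a table of the array's probe sets updated through gene numbers (12443 probe sets with 1 symbol, 327 with several, 1196 with none). Of the genes by rule, 4 probe sets with several symbols were left out, ND-MNLL was kept as a standard subunit, and SdhA and the core subunits ND-49, ND-30, ND-24 and ND-23 were not analysed here. Genes were named by rule: the brightest and the widest-ranging gene of each complex, the 4 largest called rises and falls of a comparison, every variant copy, complex II, the core subunits of complex I, and the 2 widest-ranging genes of each pathway list. The members and lists were chosen with earlier results of these data known, and the comparisons at 8 h, of bright probe sets and of the lowest testis array were added after values were seen. Copy ratios were compared with an exact permutation test. The alternatives were other normalizations, floors, filters, a pseudocount of 16, fits to 6 arrays, array weights, a replicate block, the dimmest probe set and leaving out arrays. Figures were drawn with matplotlib 3.10.9.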

Additional observations from a re-analysis of the deposited data

How the results depend on the processing

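For 40 counts and medians, 415 of 439 values under the alternatives stayed within 1.5 times the count or 1 SD of the median. Of 272 values for the 17 calls of single genes, 250 stayed called, 22 did not and 0 changed sign, and 9 calls held throughout. Of 16 alternatives each, the calls at -4 h against -18 h were lost in 6 for COX4, 5 for ATPsynbeta and 1 for COX4L, and those at 12 h against -18 h in 3 each for ATPsynB and ATPsynCF6L, 2 for ATPsynbeta and 1 each for COX7A and COX7AL. At 12 h against -18 h the falls, 8 with all arrays, numbered 5 in a fit to the 6 arrays compared, 15 after quantile normalization, 13 with array weights and 20 without both deviating larval arrays (replicate 2 of -18 h and replicate 1 of -4 h), and 6 to 20 with 1 array left out. At -4 h against -18 h the rises numbered 0 in the fit to 6 arrays, 4 with weights, 3 without both arrays and 1 to 3 with 1 array left out, and the falls 2 in the fit to 6 arrays and 2 to 11 with 1 array left out. The F-test called 25 genes with weights (37.9%, against 53.5% of all probe sets) and 31 without both arrays (47.0%, against 46.8%). It called 14 to 32 with 1 array left out. At 10 h against 8 h 1 gene fell in the fit to 6 arrays and without both arrays. With 1 array left out the falls numbered 0 to 1 there and 0 to 2 at 0 h against -4 h, and the rises 0 to 1 at 0 h against -4 h and at 6 h against 0 h. The cause of these shifts was not tested.

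Medians at -4 h against -18 h were -0.24 for complex II and -0.39 for complex V after quantile normalization, -0.28 for complex IV with a floor at the 20th percentile, -0.34 for complex IV and -0.36 for complex V with weights, and -0.41 and -0.42 without both arrays, with ranges of -0.29 to -0.11 and -0.42 to -0.22 with 1 array left out. At 12 h against -18 h complex V had -0.52 without both arrays and -0.52 to -0.31 with 1 array left out. At 6 h against 0 h complex I had 0.0 and complex IV 0.2 after quantile normalization, and complex II 0.04 with the higher floor and with a filter at the 25th percentile. Complex I ranged from 0.06 to 0.14 at 0 h against -4 h and from -0.17 to -0.01 at 12 h against 6 h with 1 array left out.

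With a replicate block the counts were unchanged (8 falls and 4 rises at 12 h against -18 h, 15 genes in the F-test). Deviations of same-numbered arrays correlated from -0.824 to 0.483 at -4 h and -18 h, and from 0.0619 to 0.471 at 10 h and 8 h, where none was below 0. Those of differently numbered arrays correlated from -0.737 to 0.812 at -4 h and -18 h, the highest above any same-numbered pair there. At 10 h and 8 h they correlated from -0.403 to 0.087. In none of the 7 comparisons was every same-numbered pair over 0.1, so the numbers were not taken to pair the samples. Precision was lowest in larvae: the SD of deviations from the stage mean was 0.459 (log2) for replicate 2 of -18 h and 0.405 for replicate 1 of -4 h.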
